A study of Mus musculus with 6 samples.

Results

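The genes described here are 46 genes of the endoplasmic reticulum (ER) stress response, of the transcription factor ATF4 and of the serine, one-carbon and amino acid pathways that ATF4 is known to control. They were chosen by name, with earlier results of these data known. Each of the 46 was found among the 25746 genes of the count table. They comprise 3 ER stress sensors with their factor Xbp1, 13 ER chaperones and folding enzymes, 4 genes of ER-associated degradation, 8 ATF4 stress factors, 9 serine and one-carbon enzymes, 3 asparagine and proline enzymes and 5 amino acid transporters. All 46 passed the filter on low counts, the lowest at a mean of 5.88 CPM, the estimated counts of a gene scaled to the size of its library. Ddit3 has a second identifier in the table, which is listed at 0 in every library and was not used.

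Expression was measured by RNA-seq in 2 Acta2 knockout (KO) and 2 wild-type (WT) libraries of mouse cardiac fibroblasts, and open chromatin by ATAC-seq in 1 KO and 1 WT library. Acta2 encodes smooth muscle α-actin, the actin of contractile myofibroblasts. The labels give 2 origins for the cells and do not say which applies to which library. In the first, fibroblasts of Acta2fl/fl or WT mice received Cre recombinase from an adenovirus in culture and then TGF-β for 2 days. In the second, a tamoxifen-inducible MerCreMer was switched on in mice aged 6 weeks by 5 daily doses of 75 mg per kg. Their left coronary artery was tied at 9 weeks of age, a further tamoxifen course ran from 1 day before to 5 days after it, Carprofen was given around surgery, and eGFP+ cells of the Tcf21 lineage were sorted from digested hearts. Nothing in the labels says that replicates came from separate animals or cultures, so every p-value measures the spread between these libraries, which may be technical.

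The unfolded protein response watches protein folding in the ER through the sensors IRE1α (Ern1), PERK (Eif2ak3) and ATF6. Activated IRE1α splices Xbp1 mRNA, ATF6 is cut in the Golgi to release a transcription factor, and both raise chaperone and degradation genes, while PERK slows translation by phosphorylating eIF2α. That phosphorylation, which other kinases also carry out when amino acids or haem run short, favours translation of ATF4, a factor that raises genes for amino acid uptake, serine, asparagine and proline synthesis and mitochondrial folate metabolism. In fibroblasts, glycine made from serine and proline made from glutamate are the main residues of collagen, and TGF-β is known to raise several of these enzymes. Gene counts measure neither spliced against unspliced Xbp1 nor the ATF4 protein.

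The KO libraries held 11370115 and 10864365 estimated counts and the WT libraries 8429166 and 9096811. Acta2 itself stood at 256 and 266 CPM in KO libraries, against 2186 and 2200 CPM in WT libraries, a log2 fold change of -3.07. The summed level of 10 fibroblast markers was 2805 to 2813 CPM in KO and 3588 to 3710 CPM in WT libraries, and 7 of the 10 fell in KO while 1 rose. Of all tested genes 18.3% rose and 17.4% fell. Of 12 macrophage markers 9 could be tested, and of these 7 rose and 0 fell. The 12 summed to 180.2 to 182.5 CPM in KO and 99.1 to 104 CPM in WT, with Fcgr1 at 0 throughout. Of 12 endothelial markers 9 rose and 1 fell, with sums of 508 to 519 CPM in KO and 379.6 to 405 CPM in WT. The 9 pericyte and smooth muscle markers, of which 7 could be tested with 3 up and 3 down, summed to 88.8 to 95.7 CPM in KO and 60.6 to 62.3 CPM in WT. Epicardial and mesothelial markers, 1 of 8 up and 4 down, summed to 302 to 313 CPM in KO and 301 to 314 CPM in WT. The 8 cardiomyocyte markers summed to 4.80 to 5.96 CPM in KO and 6.96 to 8.30 CPM in WT, with Nppa and Pln at 0. Only 1 of them could be tested, and it fell. In these bulk libraries a different share of a cell type and a different amount of RNA per cell cannot be told apart, and the part of these marker levels in the results below was not tested.

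Among the 46 genes, 28 passed the test of KO against WT, edgeR's quasi-likelihood test with Benjamini-Hochberg adjustment over 12192 genes at 0.05. Of these, 12 rose in KO and 16 fell, and 18 did not pass. That is 60.9% of the 46 genes, against 35.7% of all tested genes and 40.2% of the 9268 genes at or above the lowest of their mean levels. By direction, 26.1% of them rose against 18.3% of all tested genes, and 34.8% fell against 17.4%. In 38 genes, or 82.6%, both KO libraries lay on 1 side of both WT libraries, as did 67.1% of all tested genes. KO lay above WT in 19 of the 46 and below it in 19, against 34.3% of all tested genes above and 32.8% below. The 46 genes were chosen with earlier results of these data known, so these differences from all tested genes are not independent of that choice. The 8 whose genotypes overlapped were Ern1, Eif2ak3, Herpud1, Sel1l, Slc3a2, Slc7a11, Mthfd1l and Psat1.

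The changes were small and went in both directions. Their log2 fold changes ran from -0.94 for Trib3 to 0.50 for Slc1a5 with a median of -0.00, so all 46 stayed under 2-fold; over all tested genes the median was 0.00 and the quartiles -0.19 and 0.23. By median log2 fold change the ATF4 stress factors (0.37), the transporters (0.20), the sensors (0.16) and the degradation genes (0.15) lay above 0. The chaperones lay near it (-0.02), and the serine and one-carbon enzymes (-0.33) and the asparagine and proline enzymes (-0.80) lay below. These counts rest on how closely the replicates lay, at a fitted biological coefficient of variation (BCV) of 0.0311. With DESeq2, 17 of the 46 passed, and with an assumed BCV of 0.1 there were 9, namely Trib3, Asns, Mthfd2, Pycr1, Phgdh, Aldh1l2, Slc1a5, Ppp1r15a and Cebpb. At an assumed BCV of 0.2, 0 of the 46 passed, with adjusted p from 0.0904 upward and 6 at an unadjusted p under 0.05.

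**Figure D1:**
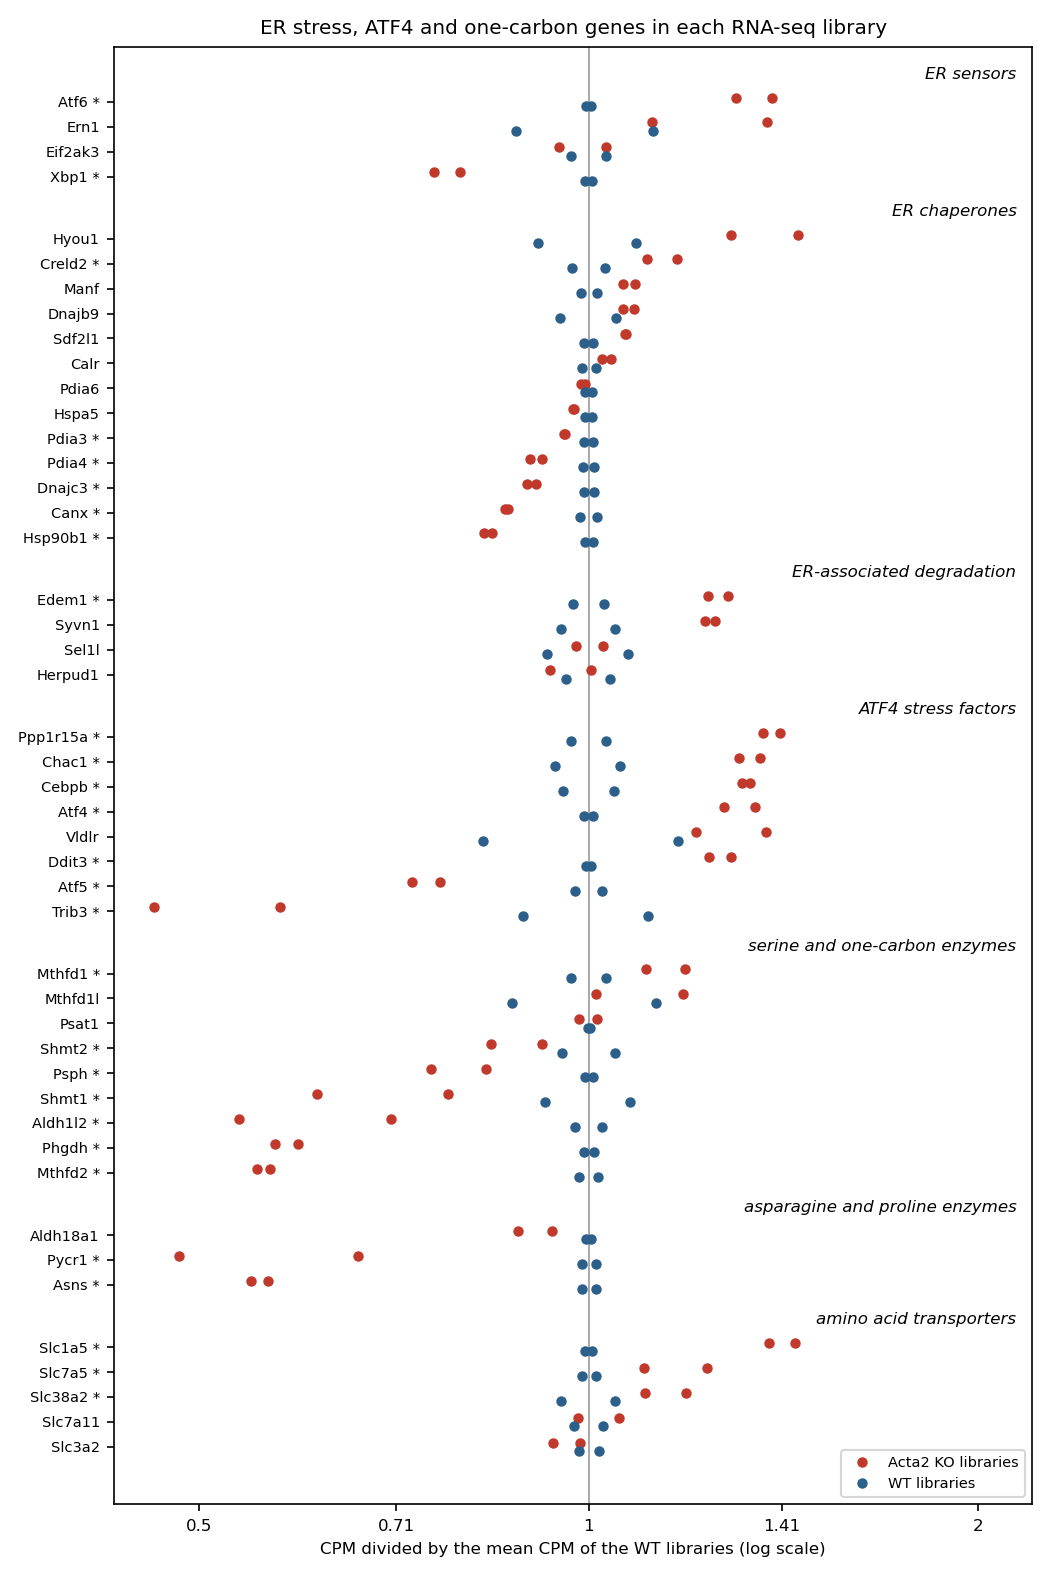
Each of the 46 genes by role, as the CPM of each library divided by the mean of the WT libraries, on a log axis; KO libraries are drawn above WT libraries for each gene, and an asterisk after the name marks genes that passed edgeR's test. Both KO points of Trib3, Asns, Mthfd2, Pycr1, Phgdh, Aldh1l2 and Shmt1 lie well to the low side, and those of Slc1a5 and Ppp1r15a to the high side.

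Of the ER stress sensors, Atf6 rose in KO and Xbp1 fell, and the genes of the other sensors did not pass. Of all tested genes 18.3% rose and 17.4% fell, shares that also stand beside the counts of each role below. With 1 up and 1 down among 4 genes, the sensors lay near those shares. Atf6, the membrane-bound factor that is cut to become active, lay at 51.5 and 54.9 CPM in KO libraries, against 39.8 and 39.5 CPM in WT libraries. Both KO values were above both WT values, with a log2 fold change of 0.42 (SE 0.08, edgeR adjusted p = 0.000107). Xbp1 (chr11:5520659-5525893, as all coordinates here in mm10, the build GRCm38), the transcript that IRE1α splices, lay at 154 and 162 CPM in KO libraries, against 202 and 204 CPM in WT libraries. The genotypes stood apart, and Xbp1 reached 77.7% of its WT level (log2 fold change -0.36, SE 0.05, edgeR adjusted p = 5.46e-07). Ern1 averaged 10.7 ± 1.53 CPM in KO libraries and 8.56 ± 1.47 CPM in WT libraries (SD, n = 2 each), and its log2 fold change of 0.32 had a 95% interval of -0.03 to 0.68 (edgeR adjusted p = 0.153). For Eif2ak3, the PERK gene, the means were 19.3 ± 1.15 CPM in KO libraries and 19.5 ± 0.872 CPM in WT libraries (SD, n = 2 each). Its interval, -0.26 to 0.24 on the log2 scale, includes changes of either sign.

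In the ER chaperones, 5 of 13 genes fell, 1 rose and 7 did not pass. The shares over all tested genes were 17.4% lower and 18.3% higher. Hspa5 (chr2:34771970-34777547) encodes BiP, the Hsp70 chaperone of the ER lumen that is commonly read as the marker of ER stress. Its level was 3043 and 3037 CPM in KO libraries, against 3106 and 3144 CPM in WT libraries. Both KO libraries were a little lower, at 97.3% of the WT level. The log2 fold change of -0.04 (SE 0.02) had an interval of -0.08 to 0.00 and did not pass (edgeR adjusted p = 0.135). Per kilobase of exon, Hspa5 stood at 719 CPM in KO and 739 CPM in WT, and of the 46 genes it was exceeded only by Pdia3, at 824 CPM per kilobase in KO and 860 CPM in WT.

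The chaperones that fell were Hsp90b1, Canx, Dnajc3, Pdia4 and Pdia3. Hsp90b1, the ER member of the Hsp90 family (GRP94), averaged 918 ± 8.75 CPM in KO libraries and 1097 ± 11.6 CPM in WT libraries (SD, n = 2 each), a log2 fold change of -0.26 (edgeR adjusted p = 2.55e-08). Canx, the membrane lectin calnexin that holds folding glycoproteins, averaged 1577 ± 7.23 CPM in KO libraries and 1826 ± 39.9 CPM in WT libraries (SD, n = 2 each), a log2 fold change of -0.21 (edgeR adjusted p = 1.03e-07). Exons of 1810014B01Rik on the opposite strand overlap 10.3% of the exon bases of Hsp90b1. The other falls were smaller, at -0.15 for Dnajc3, a co-chaperone that also inhibits PERK, and at -0.14 and -0.06 for the disulphide isomerases Pdia4 and Pdia3. Creld2, a disulphide isomerase-like protein, had a log2 fold change of 0.19 (edgeR adjusted p = 0.00834).

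The calls on Creld2, Dnajc3, Pdia3 and Pdia4 depended on single libraries. Without KO replicate 1, Creld2 (log2 fold change 0.15), Dnajc3 (-0.14), Pdia3 (-0.07) and Pdia4 (-0.12) no longer passed, which left 2 chaperones lower and 0 higher. Without WT replicate 2, Creld2 (0.14), Pdia3 (-0.05) and Pdia4 (-0.12) did not pass. Dnajc3 (-0.14) and Pdia4 (-0.15) did not pass without WT replicate 1, nor Pdia3 (-0.06) and Pdia4 (-0.15) without KO replicate 2. In DESeq2 these same 4 genes did not pass either, and with library size as the only scaling Pdia3 and Pdia4 did not.

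The chaperones that did not pass had log2 fold changes of -0.04 for Hspa5, -0.01 for the isomerase Pdia6, 0.04 for the lectin calreticulin (Calr), 0.09 for Sdf2l1, 0.10 for Dnajb9, 0.10 for Manf and 0.46 for Hyou1. Dnajb9 and Sdf2l1 are partners of BiP, Manf is a secreted ER stress protein, and Hyou1 is a nucleotide exchange factor of BiP. Hyou1 had the lowest mean count of the 46 over the 4 libraries, with 6.80 ± 0.575 CPM in KO libraries and 4.97 ± 0.609 CPM in WT libraries (SD, n = 2 each). Its 95% interval of 0.01 to 0.90 is correspondingly wide (edgeR adjusted p = 0.1).

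Several chaperone promoters carry the ER stress element (ERSE), which ATF6 binds together with NF-Y and whose letters are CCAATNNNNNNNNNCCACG. The RefSeq promoter table for GRCm38.p6, 250 bases before to 50 after each start, held 43 promoters for 40 of the 46 genes. Searched on both strands, the element was found in 8 of the 40 genes, against 0.119% of 32851 promoters in the table; it was first described at chaperone genes of this kind, so its presence there is background. The sites are printed in the direction of the element, with its fixed letters in capitals. They belong to chaperone genes and to the degradation gene Syvn1, whose RNA levels did not all go the same way.
Hspa5, chr2:34772025-34772043: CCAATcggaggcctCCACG
Hsp90b1, chr10:86705638-86705656: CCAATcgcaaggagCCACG
Hsp90b1, chr10:86705533-86705551: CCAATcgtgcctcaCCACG
Canx, chr11:50325800-50325818: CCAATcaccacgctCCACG
Dnajc3, chr14:118937827-118937845: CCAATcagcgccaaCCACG
Creld2, chr15:88819520-88819538: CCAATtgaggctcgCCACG
Calr, chr8:84847075-84847093: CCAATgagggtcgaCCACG
Pdia6, chr12:17266491-17266509: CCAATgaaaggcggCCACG
Syvn1, chr19:6046532-6046550: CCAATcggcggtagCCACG

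Of the 8 genes with this element, 3 fell (Hsp90b1, Canx and Dnajc3), 1 rose (Creld2) and 4 did not pass (Hspa5, Calr, Pdia6 and Syvn1). The shares over all tested genes were 17.4% lower and 18.3% higher, and Dnajc3 and Creld2 did not pass in DESeq2. Their median log2 fold change was -0.03, within a range of -0.26 to 0.31. The shorter second form, ATTGGNCCACG, was found in Herpud1 only, against 0.0365% of all promoters, and the XBP1 element TGACGTGG in 0 of the 40 genes, against 0.676%. The letters CCACG close both ER stress elements, and their reverse complement lies within the XBP1 element. A match describes letters and not binding, and a window without one says nothing about the factor.

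In ER-associated degradation, which moves misfolded proteins out of the ER to the proteasome, Edem1 rose and the other 3 genes did not pass. That is 1 of 4 genes, near the 18.3% of all tested genes that rose. Edem1, a lectin that picks out misfolded glycoproteins, averaged 165 ± 4.29 CPM in KO libraries and 131 ± 5.06 CPM in WT libraries (SD, n = 2 each), a log2 fold change of 0.33 (edgeR adjusted p = 6.70e-06). The ubiquitin ligase Syvn1 had a log2 fold change of 0.31, with an interval of 0.02 to 0.59 and an edgeR adjusted p of 0.0868. Its partner Sel1l lay at -0.00 (interval -0.12 to 0.12) and Herpud1, a membrane scaffold of that complex, at -0.04 (interval -0.15 to 0.07).

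Among the ATF4 stress factors, 5 of 8 genes rose in KO, 2 fell and Vldlr did not pass. Over all tested genes 18.3% rose and 17.4% fell. Atf4 (chr15:80255184-80257541) lay at 130.3 and 123 CPM in KO libraries, against 97.7 and 96.1 CPM in WT libraries. KO was above WT in each library, with a log2 fold change of 0.39 (SE 0.05, edgeR adjusted p = 1.58e-06). Ddit3, which encodes the pro-apoptotic factor CHOP and is raised by ATF4, lay at 213 and 205 CPM in KO libraries, against 165 and 166 CPM in WT libraries. It was likewise higher in both, with a log2 fold change of 0.34 (SE 0.05, edgeR adjusted p = 1.58e-06). Ppp1r15a (GADD34), which brings the phosphatase that reverses eIF2α phosphorylation, lay at 514 and 530.0 CPM in KO libraries, against 366 and 389 CPM in WT libraries. These libraries did not overlap, and at 0.47 (SE 0.04, edgeR adjusted p = 7.23e-11) Ppp1r15a had the largest log2 rise of this group.

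Cebpb and Chac1 rose by similar amounts. Cebpb, a bZIP factor that pairs with ATF4 on DNA, averaged 178 ± 1.76 CPM in KO libraries and 134 ± 8.66 CPM in WT libraries (SD, n = 2 each), a log2 fold change of 0.40 (edgeR adjusted p = 3.58e-07). Exons of Tmem189 on the opposite strand overlap 20.7% of its exon bases, and Tmem189 rose by 0.55. The RNA kit is not stated to keep strand, so reads of this stretch cannot be assigned to either gene. Chac1, an enzyme that breaks down glutathione, averaged 24.9 ± 0.653 CPM in KO libraries and 18.7 ± 1.53 CPM in WT libraries (SD, n = 2 each), a log2 fold change of 0.41 (edgeR adjusted p = 0.00671). Without WT replicate 1 Chac1 no longer passed (log2 fold change 0.33, adjusted p = 0.0646), nor did it in DESeq2.

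The factors that fell were Trib3 and Atf5. Trib3, a pseudokinase raised by ATF4 and CHOP, lay at 7.54 and 6.02 CPM in KO libraries, against 14.5 and 11.6 CPM in WT libraries. Both KO libraries lay below both WT libraries, at 52.2% of the WT level, and the log2 fold change of -0.94 (SE 0.17, edgeR adjusted p = 0.000116) was the lowest of the 46. With 1 library left out, this value ran from -1.12 to -0.78. Atf5, a factor of the mitochondrial stress response that ATF4 and CHOP raise, lay at 32.9 and 31.3 CPM in KO libraries, against 44.0 and 41.9 CPM in WT libraries. That is a log2 fold change of -0.42 (SE 0.09, edgeR adjusted p = 0.000373), again with no overlap. Nup62 on the opposite strand overlaps 4.11% of the exon bases of Atf5 and rose by 0.21.

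Vldlr, a lipoprotein receptor that PERK and ATF4 are known to raise, averaged 17.2 ± 1.51 CPM in KO libraries and 13.3 ± 3.23 CPM in WT libraries (SD, n = 2 each). Its log2 fold change of 0.36 missed the threshold (edgeR adjusted p = 0.0646). Leaving out 1 library moved it between 0.14 without WT replicate 1 and 0.64 without WT replicate 2, and it passed without WT replicate 2 and, at 0.44, without KO replicate 1.

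Atf4, Ddit3, Ppp1r15a, Cebpb and Chac1 thus had values opposite in sign to those of Trib3 and Atf5. Per kilobase of exon, the levels in KO of those that rose lay between 15.2 CPM (Chac1) and 178 CPM (Ppp1r15a), and those of the genes that fell were 3.19 CPM for Trib3 and 16.1 CPM for Atf5.

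**Figure D2:**
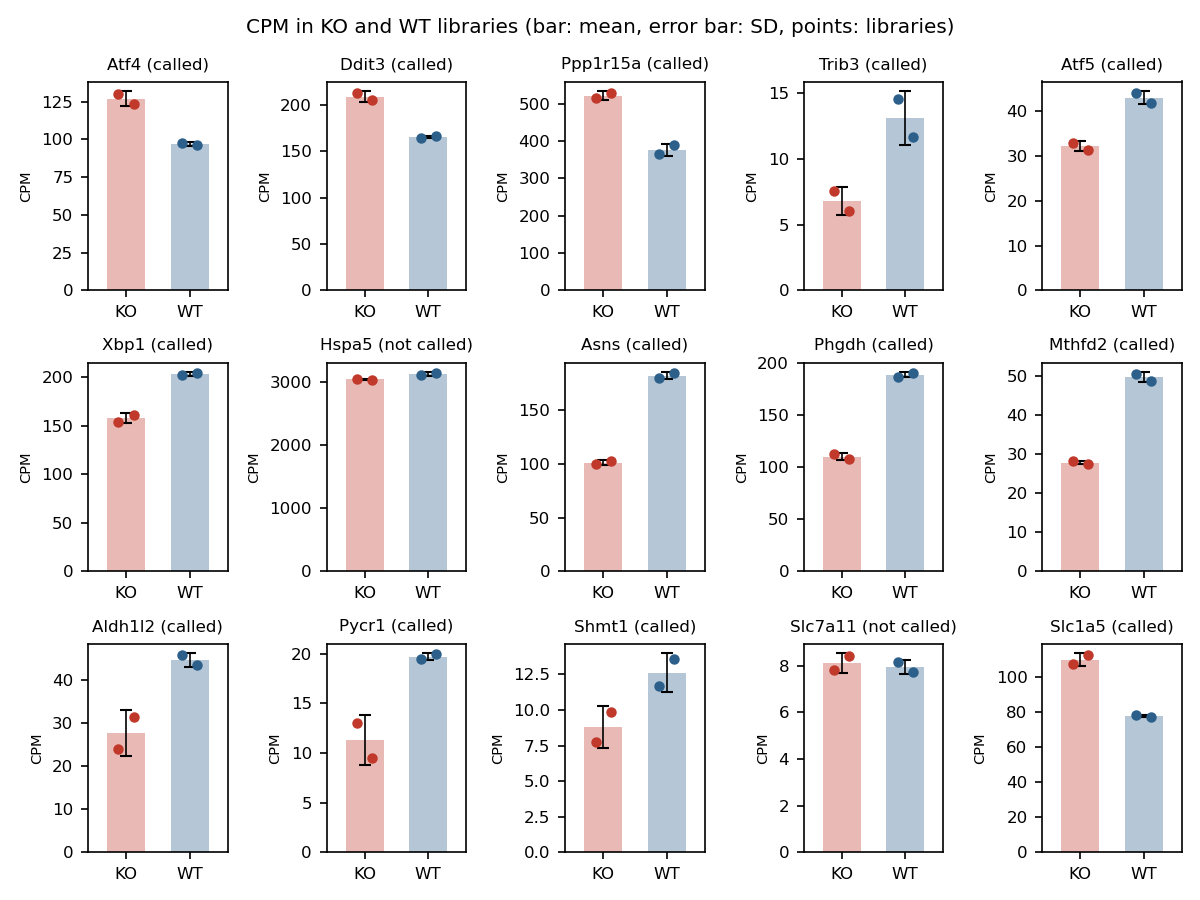
CPM of selected genes in each library, KO bars left of WT bars, with bar heights at the genotype means, error bars of 1 SD and points at the libraries; each panel has its own axis from 0. The KO points lie above the WT points for Atf4, Ddit3, Ppp1r15a and Slc1a5 and below them for Xbp1, Atf5, Trib3 and the enzymes shown, and a little below them for Hspa5, while those of Slc7a11 overlap; Ppp1r15a and Slc1a5 were added to the display after their values were seen.

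In serine synthesis, the first and last enzymes fell and the middle one did not pass. Phgdh (chr3:98313170-98339990), which commits the glycolytic intermediate 3-phosphoglycerate to serine, lay at 112 and 108 CPM in KO libraries, against 187 and 190.3 CPM in WT libraries. Both KO libraries were well below both WT libraries, at 58.4% of the WT level (log2 fold change -0.78, SE 0.05, edgeR adjusted p = 6.34e-13). Psat1, the transaminase of the next step, averaged 155 ± 3.44 CPM in KO libraries and 155 ± 0.411 CPM in WT libraries (SD, n = 2 each), with an interval of -0.10 to 0.10 on the log2 scale. Psph, the phosphatase that releases serine, averaged 37.7 ± 2.62 CPM in KO libraries and 47.5 ± 0.488 CPM in WT libraries (SD, n = 2 each), a log2 fold change of -0.33 (edgeR adjusted p = 0.0024).

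Of the 100-base windows along the Phgdh exons, 28.1% also occur in transcripts of other genes, mainly of Gm7901, so part of its count depends on how reads were shared. Exons of Cct6a on the opposite strand overlap 10.4% of the exon bases of Psph, and Cct6a had a log2 fold change of -0.02. Psph no longer passed without KO replicate 1 (log2 fold change -0.27, adjusted p = 0.0541).

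In the one-carbon pathway, where serine gives a carbon to folate, the mitochondrial enzymes Mthfd2 and Aldh1l2 fell most. Mthfd2 (chr6:83305691-83325908), a dehydrogenase and cyclohydrolase, lay at 28.2 and 27.6 CPM in KO libraries, against 50.6 and 48.9 CPM in WT libraries. At 56.1% of the WT level the genotypes stood apart (log2 fold change -0.83, SE 0.08, edgeR adjusted p = 8.61e-09). Aldh1l2, which oxidises formyl-folate and yields NADPH, lay at 23.9 and 31.4 CPM in KO libraries, against 45.7 and 43.5 CPM in WT libraries. The KO libraries differed between themselves more than the WT libraries did, yet both lay below them (log2 fold change -0.69, SE 0.10, edgeR adjusted p = 4.39e-06). D10Wsu102e on the opposite strand shares 14.1% of the exon bases of Aldh1l2 and had a log2 fold change of 0.10.

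The serine hydroxymethyltransferases, which split serine into glycine and a folate-bound carbon, fell by less. Shmt1, the cytosolic form, lay at 7.78 and 9.83 CPM in KO libraries, against 11.7 and 13.6 CPM in WT libraries. Its log2 fold change was -0.52 (SE 0.17, edgeR adjusted p = 0.0153), with no overlap between genotypes. Shmt2, the mitochondrial form, averaged 81.2 ± 5.24 CPM in KO libraries and 92.2 ± 6.12 CPM in WT libraries (SD, n = 2 each), a log2 fold change of -0.19 (edgeR adjusted p = 0.0214). Smcr8 on the opposite strand overlaps 4.74% of the exon bases of Shmt1 and rose by 0.23.

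Mthfd1, the cytosolic enzyme with 3 folate activities, was the member of this group that rose. It averaged 83.1 ± 4.03 CPM in KO libraries and 72.5 ± 3.17 CPM in WT libraries (SD, n = 2 each), a log2 fold change of 0.20 (edgeR adjusted p = 0.0152). Mthfd1l, which makes formate in mitochondria, had a log2 fold change of 0.13 with an interval of -0.19 to 0.44. Within the group, therefore, 6 of 9 genes fell, 1 rose and Psat1 and Mthfd1l did not pass. Over all tested genes 17.4% fell and 18.3% rose.

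The calls on Shmt1, Shmt2 and Mthfd1 depended on single libraries. Shmt1 did not pass without KO replicate 1 (log2 fold change -0.36) or WT replicate 2 (-0.40), and Shmt2 did not pass without KO replicate 1 (-0.13) or WT replicate 2 (-0.12). Mthfd1 did not pass without KO replicate 2 (0.15) or WT replicate 2 (0.15). Without KO replicate 1 the group had 3 genes lower rather than 6, and in DESeq2 Psph, Shmt1, Shmt2 and Mthfd1 did not pass.

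Of the asparagine and proline enzymes, Asns and Pycr1 fell and Aldh18a1 did not pass. Asns (chr6:7675169-7693254), asparagine synthetase and a standard reporter of ATF4, lay at 99.98 and 103 CPM in KO libraries, against 180.0 and 184 CPM in WT libraries. The genotypes stood far apart. Asns was at 55.7% of its WT level and had the smallest p of the 46 genes (log2 fold change -0.85, SE 0.05, edgeR adjusted p = 1.15e-13). Pycr1, the mitochondrial reductase of the last step of proline synthesis, lay at 13.1 and 9.49 CPM in KO libraries, against 19.4 and 19.9 CPM in WT libraries. It fell by 0.80 on the log2 scale (SE 0.15, edgeR adjusted p = 0.000109), and leaving out 1 library moved its log2 fold change between -1.06 and -0.59 without losing the call. Aldh18a1, which starts proline synthesis from glutamate, averaged 51.7 ± 2.18 CPM in KO libraries and 56.8 ± 0.332 CPM in WT libraries (SD, n = 2 each), with an interval of -0.29 to 0.01 on the log2 scale.

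ATF4 pairs with C/EBP factors on a composite element with the letters TGATGNAA, searched on both strands. The element was found in 7 of the 40 genes with a promoter in the table, against 3.97% of all 32851 promoters. Genes that ATF4 is known to control were among those chosen, so its presence there is background, and that of Asns is a textbook case. Of the 7, Trib3, Asns and Pycr1 fell, Chac1 rose, and Herpud1, Slc7a11 and Vldlr did not pass, with log2 fold changes from -0.94 to 0.41. The shares over all tested genes were 17.4% lower and 18.3% higher, and Chac1 did not pass in DESeq2. The promoters of the 4 that changed are printed 5′ to 3′ on the strand of the gene, because they share this element and their RNA levels went opposite ways. Capitals mark the element, which reads TTNCATCA where it lies on the other strand, as in Trib3 and Chac1. Counted from the RefSeq start, it lies 14 bases after the start in Trib3 and ends 16 bases before it in Asns. The gene coordinates of the count table begin elsewhere. By those, the element lies before the start of Trib3 and after that of Asns.
Trib3, chr2:152344011-152344310, strand minus: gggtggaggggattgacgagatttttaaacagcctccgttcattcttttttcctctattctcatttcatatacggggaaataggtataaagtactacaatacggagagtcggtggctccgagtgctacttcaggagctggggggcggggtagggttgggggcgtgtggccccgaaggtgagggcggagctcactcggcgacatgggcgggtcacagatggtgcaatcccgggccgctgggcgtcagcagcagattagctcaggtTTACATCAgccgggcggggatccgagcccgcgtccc
Asns, chr6:7693160-7693459, strand minus: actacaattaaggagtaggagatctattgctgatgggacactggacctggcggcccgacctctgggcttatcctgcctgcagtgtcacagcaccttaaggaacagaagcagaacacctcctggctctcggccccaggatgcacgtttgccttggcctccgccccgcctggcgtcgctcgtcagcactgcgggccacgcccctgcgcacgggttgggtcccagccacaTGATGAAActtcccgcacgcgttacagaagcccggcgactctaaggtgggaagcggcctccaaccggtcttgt
Pycr1, chr11:120643699-120643998, strand minus: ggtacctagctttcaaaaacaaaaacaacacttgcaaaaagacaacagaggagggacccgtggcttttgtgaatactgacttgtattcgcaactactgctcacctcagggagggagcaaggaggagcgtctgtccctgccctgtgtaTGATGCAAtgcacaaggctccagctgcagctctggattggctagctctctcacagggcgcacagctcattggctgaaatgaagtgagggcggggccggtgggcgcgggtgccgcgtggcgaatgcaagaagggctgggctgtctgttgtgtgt
Chac1, chr2:119350992-119351291, strand plus: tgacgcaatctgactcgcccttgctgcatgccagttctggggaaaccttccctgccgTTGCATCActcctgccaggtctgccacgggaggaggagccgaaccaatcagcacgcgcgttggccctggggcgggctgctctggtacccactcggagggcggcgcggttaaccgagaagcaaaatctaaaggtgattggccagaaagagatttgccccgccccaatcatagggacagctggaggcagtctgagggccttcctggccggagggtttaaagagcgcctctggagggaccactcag

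Among the amino acid transporters, 3 of 5 genes rose, 0 fell (also 0 at an unadjusted p under 0.05) and 2 did not pass. Over all tested genes 18.3% rose and 17.4% fell. Slc1a5, a carrier of glutamine and other neutral amino acids, lay at 107 and 112 CPM in KO libraries, against 78.4 and 77.4 CPM in WT libraries. All KO values were above all WT values, and its log2 fold change of 0.50 (SE 0.06, edgeR adjusted p = 7.34e-08) was the highest of the 46. Slc7a5, the light chain of the leucine exchanger, had a log2 fold change of 0.23 (edgeR adjusted p = 0.0325), and Slc38a2, a sodium-coupled carrier, had 0.20 (edgeR adjusted p = 0.0073).

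Slc3a2, the heavy chain that both Slc7a5 and Slc7a11 need at the membrane, averaged 325 ± 11.4 CPM in KO libraries and 338 ± 8.47 CPM in WT libraries (SD, n = 2 each), with overlapping libraries and an interval of -0.14 to 0.03. Slc7a11, the cystine importer that feeds glutathione synthesis and a well-known ATF4 target, lay at 7.81 and 8.40 CPM in KO libraries, against 8.17 and 7.75 CPM in WT libraries. The genotypes overlapped, and the log2 fold change of 0.03 had an interval of -0.34 to 0.39 (edgeR adjusted p = 0.926). Without WT replicate 1 only Slc1a5 of the transporters passed, while Slc7a5 (0.24) and Slc38a2 (0.13) did not. Slc7a5 also failed without KO replicate 1 (0.14) and WT replicate 2 (0.21), and Slc38a2 without KO replicate 2 (0.14); in DESeq2 neither passed.

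**Figure D3:**
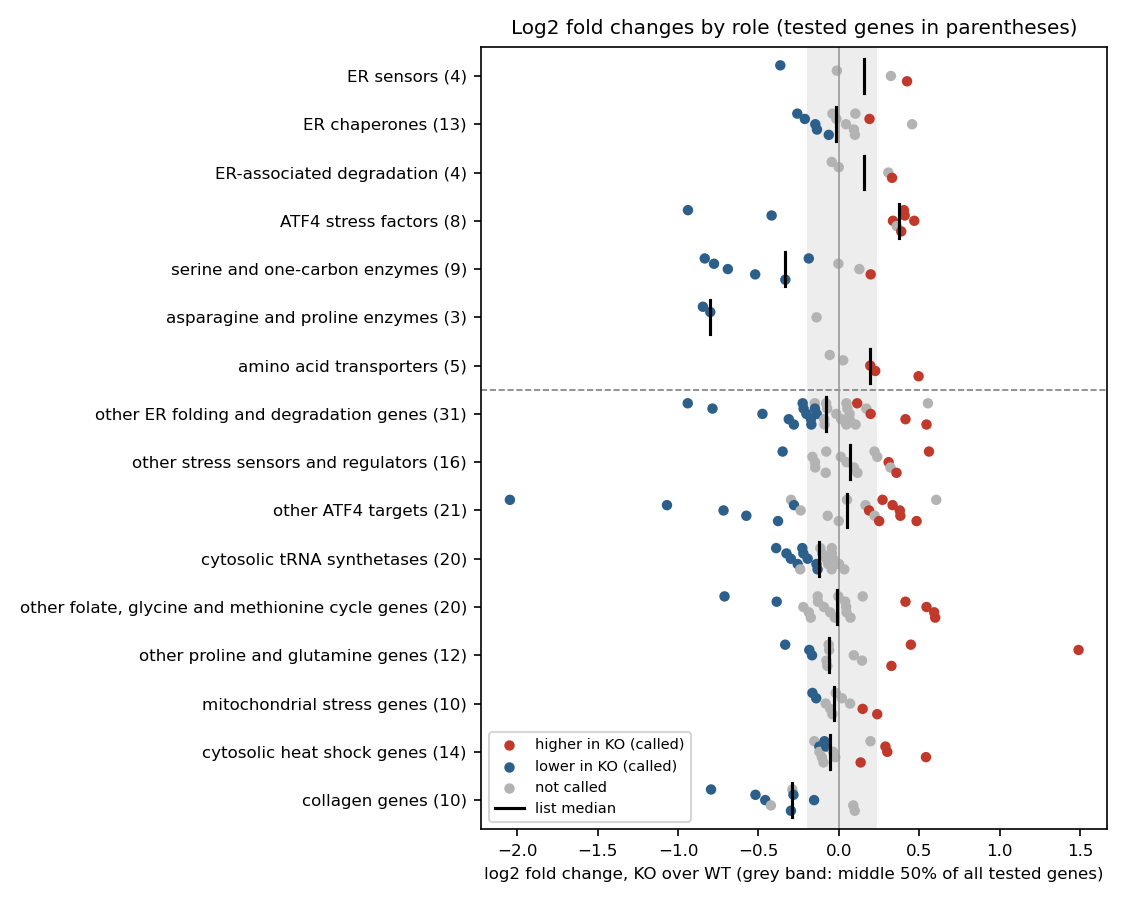
Log2 fold change, KO over WT, of each gene by role and of the genes of the 9 further lists, with the median of each list as a line and the quartiles of all tested genes shaded; red points rose and blue points fell by edgeR's test, and grey points did not pass. Asparagine and proline enzymes and serine and one-carbon enzymes have medians below 0 (-0.80 and -0.33), and ATF4 stress factors above 0 (0.37).

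Further genes of these and neighbouring pathways, of mitochondrial and cytosolic stress and of collagen, 159 in 9 lists of which 154 could be tested, rose in 27 cases and fell in 44. The median of their log2 fold changes was -0.06. Of all tested genes 18.3% rose and 17.4% fell, shares that also stand beside the counts of each list below. Among 31 tested genes of ER folding, glycosylation and degradation outside the 46, 12 fell and 4 rose, with a median of -0.08. Ssr1, a subunit of the translocon-associated complex through which secretory proteins enter the ER, averaged 509.8 ± 4.67 CPM in KO libraries and 879 ± 12.2 CPM in WT libraries (SD, n = 2 each), a log2 fold change of -0.79 (edgeR adjusted p = 1.37e-17). Erlec1, an ER lectin, had -0.94, and Stt3a, a catalytic subunit of the oligosaccharyltransferase, had -0.22. Of 16 tested further sensors and regulators, 3 rose and 1 fell. These included rises of Creb3l1, an ER-bound factor of the secretory and collagen programme (0.56), and of Eif2ak1, the haem-regulated eIF2α kinase (0.36), and a fall of Mbtps1, the protease that cuts ATF6 (-0.35). Mbtps1 did not pass without WT replicate 2 (-0.28) or in DESeq2.

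Of 21 further tested ATF4 targets, 7 rose and 6 fell, with a median log2 fold change of 0.05. Bcat1, which transaminates branched-chain amino acids, averaged 109 ± 0.0145 CPM in KO libraries and 179.8 ± 9.01 CPM in WT libraries (SD, n = 2 each), a log2 fold change of -0.72 (edgeR adjusted p = 6.59e-12). Ndrg1, a stress-responsive gene, fell by 0.58, and Nupr1, a stress-induced chromatin protein, rose by 0.38. Gpt2, an alanine aminotransferase, lay at a mean of 6.44 CPM in KO and 13.5 CPM in WT, and Ddit4 (REDD1), an inhibitor of mTORC1, at 55.6 CPM in KO and 39.8 CPM in WT (log2 fold changes -1.07 and 0.48). Gpt2 and Ddit4 were singled out after their values were seen.

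Of 20 cytosolic tRNA synthetases, many of which ATF4 is known to raise, 9 fell and 0 rose, also 0 at an unadjusted edgeR p under 0.05. Their median log2 fold change was -0.12, and both KO libraries lay below both WT libraries in 14 of the 20 and above them in 0, where 32.8% of all tested genes lay below and 34.3% above. Eprs, which charges glutamate and proline, had -0.39, Kars had -0.30 and Sars had -0.19. At an assumed BCV of 0.1 Eprs, Kars and Sars did not pass. Of 20 further tested folate, glycine and methionine genes, 4 rose and 2 fell. Mtr, methionine synthase, had a log2 fold change of 0.59, and Mthfs, which salvages formyl-folate, had -0.71. Mtr did not pass without KO replicate 2 (0.46), and in DESeq2 neither Mtr nor Mthfs passed.

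In 12 further proline and glutamine genes, 3 rose and 3 fell. Aldh4a1, a mitochondrial enzyme of proline breakdown, averaged 35.5 ± 0.324 CPM in KO libraries and 12.6 ± 0.314 CPM in WT libraries (SD, n = 2 each). Its log2 fold change of 1.49 (edgeR adjusted p = 3.06e-11) passed at each BCV tried, including 0.2. Glul, glutamine synthetase, rose by 0.45, and P4ha1, a collagen prolyl hydroxylase, fell by 0.17. Of 10 collagen and related matrix genes, 6 fell and 0 rose, also 0 at an unadjusted edgeR p under 0.05, with a median of -0.29; Postn had a log2 fold change of -0.79, Col3a1 had -0.52 and Col1a2 had -0.46.

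Stress genes of other compartments moved in both directions, as did all tested genes, of which 18.3% rose and 17.4% fell. Of 10 mitochondrial stress genes 2 rose and 2 fell (median -0.03), which is near those shares. The protease genes Htra2 (0.24) and Clpp (0.15) were higher in KO and the co-chaperonin Hspe1 (-0.14) was lower. Clpp lost its call whichever library was left out (0.13 to 0.16), Htra2 without WT replicate 2 (0.16) and Hspe1 without WT replicate 1 (-0.13). Of 14 cytosolic heat shock genes 4 rose and 3 fell (median -0.06), with Hspa1a at 0.54, Hspb1 at 0.29 and Hsp90ab1 at -0.12.

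Open chromatin at the 46 start sites was described from the authors' peak lists, 121748 peaks in KO and 123935 in WT. With 1 library per genotype no difference between them was tested. Every one of the 46 genes had a peak within 1000 bp of its start in KO and in WT, as did 93.6% of 12190 tested genes in KO and 93.6% in WT. A peak counted if any part of it reached this window, so its summit could lie outside. At Slc1a5, for example, the summit lay 2421 bp after the start in KO and 2235 bp after it in WT. The fold enrichment of the best such peak, the authors' value over the library's background, had a median of 25.9 in KO and 22.6 in WT, which are fold enrichments and not changes. Over all peaks the median fold enrichment was likewise higher in KO, at 6.38, than in WT, at 5.75. Within each list, the best peak of a gene exceeded a median of 96.6% of all peaks in KO and 96.3% in WT. The best start-site peaks of other genes were not ranked, so whether these ranks are particular to the 46 genes was not tested.

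The lowest fold enrichment was that of Psat1, 7.65 in KO and 6.16 in WT, and the highest was 47.2 in KO, at Sel1l, and 36.1 in WT, at Manf. At the genes that fell most in RNA, the fold enrichment was 21.7 in KO and 18.9 in WT for Trib3, 29.8 in KO and 23.4 in WT for Asns, and 37.0 in KO and 34.1 in WT for Mthfd2. It was 17.9 in KO and 22.2 in WT for Pycr1, and 11.9 in KO and 13.6 in WT for Phgdh, so the values were higher in KO at 3 of these 5 genes and lower at 2. The summit at Phgdh lay 1056 bp after the start in KO and 175 bp after it in WT, so its values describe different places. Atf4 lay in a broad open stretch whose peak reached from 1492 bp before its start to 6281 bp after it in KO, and from 1593 bp before to 7386 bp after in WT. The peak over Ddit3 was broader still, from 4410 bp before to 6073 bp after its start in KO and from 4413 bp before to 5789 bp after in WT.

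**Figure D4:**
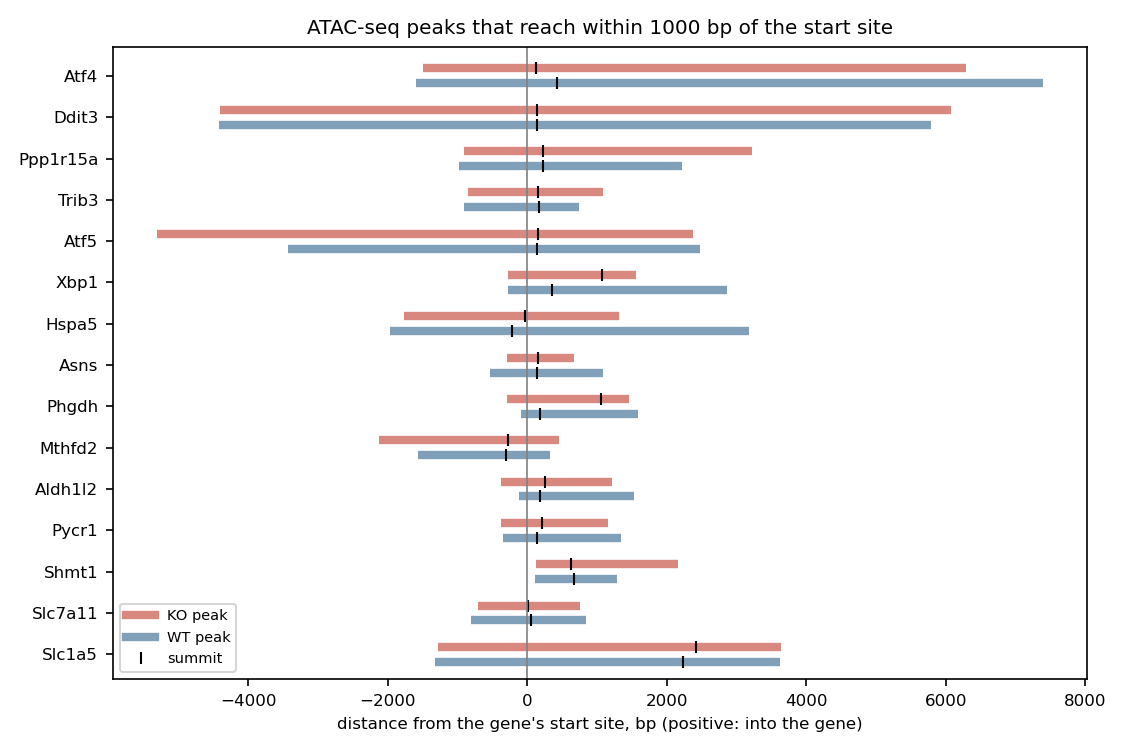
Extent of the authors' ATAC-seq peaks within 1000 bp of the start sites of the genes whose CPM bars are plotted, in bp from the start along the gene's direction, the KO peak above the WT peak of each gene and the summit as a tick. Every gene shown carries a peak in both libraries, and the peaks of Ddit3 and Atf4 are the widest of those shown.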

How the data were processed

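The 46 genes and the further lists were chosen with earlier results of these data known. For RNA-seq, the deposited table gives estimated counts of each gene in 2 KO and 2 WT libraries. Per the labels' protocols, 150 bp paired reads were aligned to mm10 by STAR 2.5.3a after adapter trimming by Trim Galore 0.6. Such estimates share ambiguous reads among genes by a model. Which program and gene models were used, and whether strand was, is not given in the sources used here. Whole counts had been assumed when the test was chosen, so the estimates were rounded before the test. The deposited ATAC-seq peak lists (1 KO and 1 WT library) hold an integer score, fold enrichment (a ratio over background), −log10 p-value and −log10 q-value. Per the labels' protocols, reads were aligned with Bowtie2 2.3 and MACS2 called peaks per library; whether cut sites were shifted is not given in the sources used here. Deposited −log10 q-values began at 1.86 in the KO list and at 1.70 in the WT list.

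R 4.3.3 and edgeR 4.0.16 were used for the quasi-likelihood test of genotype, after filterByExpr with a minimum count of 10 and TMM scaling, with Benjamini-Hochberg adjustment over 12192 genes at 0.05. CPM uses TMM-scaled library sizes, each SE was derived from the fold change and the F statistic, and intervals are 95%. Library totals of 8429166 to 11370115 set the precision. Within a genotype, chi-square per degree of freedom between replicates was 1.93 in KO and 1.75 in WT, against 17.2 to 17.9 between genotypes. These values cannot tell whether the replicates came from separate animals or cultures. No library was merged or dropped. A simulation with known changes was used to check the script. Start sites and exon lengths came from GENCODE M21 (GRCm38), which held 25712 of the 25746 identifiers. Promoters and motif windows came from RefSeq. All 46 genes are named; library values are given for those that passed with an absolute log2 fold change of at least 0.5 and for Hspa5, Xbp1, Atf4, Atf5, Ddit3, Trib3, Asns, Mthfd2 and Slc7a11. Atf6, Ppp1r15a and Slc1a5 were added after their values were seen. In each further list, up to 3 genes that passed, with the smallest p, are named. Of these, 1 gene is not reported here. Alternatives were DESeq2 1.42.0, other scalings and filters, assumed BCVs, a replicate block and leaving out each library.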

Additional observations from a re-analysis of the deposited data

How the results depend on the processing

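The call of each of the 28 genes that passed kept its direction under every alternative run. Over all genes, 4352 passed, against 2058 in DESeq2, 1780 at an assumed BCV of 0.1 and 398 at 0.2. Among the 46 genes, 28 passed (12 higher, 16 lower), against 17 (7 higher, 10 lower) in DESeq2, 9 (3 higher, 6 lower) at a BCV of 0.1 and 0 (0 higher, 0 lower) at 0.2. Leaving out 1 library gave 3392 to 3674 genes in the whole table, 21 to 24 of the 46, 9 to 11 higher and 10 to 14 lower, the 10 without KO replicate 1. The further lists had 71 genes, against 50 in DESeq2, 18 at a BCV of 0.1 and 3 at 0.2. At 0.1, 13 genes named above did not pass: Clpp, Eif2ak1, Eprs, Hsp90ab1, Hspb1, Hspe1, Htra2, Kars, Mbtps1, Nupr1, P4ha1, Sars and Stt3a. By role, in DESeq2 the chaperones had 0 higher and 2 lower, the transporters 1 higher, and the serine and one-carbon enzymes 0 higher and 3 lower. At a BCV of 0.1 the ATF4 factors had 2 higher and 1 lower, the chaperones 0 in each direction, the sensors 0 in each direction, the degradation genes 0 higher, the transporters 1 higher, and the serine and one-carbon enzymes 0 higher and 3 lower; at 0.2 each role had 0. With library size as the only scaling the chaperones had 2 higher and 3 lower. Leaving out 1 library gave 0 to 1 chaperones higher and 2 to 3 lower, 1 to 2 transporters higher, 4 to 6 ATF4 factors higher, and 0 to 1 serine and one-carbon enzymes higher and 3 to 6 lower. What the same-numbered libraries of the 2 genotypes share beyond a number is not given in the sources used here. The correlation of their deviations was 0.000403 over 2 pairs, which are too few to exclude pairing. With the replicate block 31 of the 46 genes passed, the 28 and Hspa5, Manf and Vldlr, so the block gave 2 chaperones higher and 6 lower, and it gave 4408 genes in the whole table. Signs turned only for genes that did not pass. With library size alone these were Pdia6 (0.00621), Eif2ak3 (0.00898), Sel1l (0.0206) and Psat1 (0.0187), without a filter Sel1l (0.00305) and Psat1 (0.000955), and at a minimum count of 50 Sel1l (0.00369) and Psat1 (0.00155). Sel1l also turned at a BCV of 0.1 (0.00191), at 0.2 (0.00223) and with the block (0.00272). Leaving out 1 library gave both signs for Eif2ak3 (-0.0796 to 0.0481), Herpud1 (-0.103 to 0.0104), Sel1l (-0.101 to 0.107), Slc7a11 (-0.0249 to 0.0752), Mthfd1l (-0.0417 to 0.327) and Psat1 (-0.0237 to 0.0154). The cause of these changes was not tested. The 46 genes had a peak in KO and in WT at a −log10 q of at least 5, at 200 bp of overlap and at 500 bp from the start. The widest intervals of the 46 genes were those of Hyou1, Slc7a11, Trib3, Ern1 and Shmt1, whose mean levels were 6.78 to 10.7 CPM in KO and 4.97 to 13.1 CPM in WT.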
